A study of Homo sapiens with 6 samples.

Results

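Described here are 36 genes of glycolysis, glucose and lactate transport, pyruvate dehydrogenase and glycogen metabolism, out of 31424 gene symbols on the array. They were chosen by function, as every probe whose symbol was one of 37 given names. Of these names 36 were found, since the muscle-type pyruvate kinase gene PKM appears only under its older symbol PKM2. RNA came from MDA-MB-231, a triple-negative human breast carcinoma line with a mesenchymal look, and was read on Illumina HumanHT-12 v4 arrays. Control cells carried a scrambled short hairpin RNA (shRNA; 3 arrays), and the others carried a hairpin directed at the transcription factor SOX4 (SOX4 shRNA; 3 arrays). Both groups were grown in DMEM with serum, and the SOX4 group rests on a single hairpin. The labels do not tell separate cultures from repeats of one culture, so the p-values cover the spread between these arrays, which may be technical.

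Glycolysis splits glucose into pyruvate in the cytosol. Glucose enters through transporters of the SLC2A (GLUT) family, is phosphorylated by hexokinases, passes the committed step at phosphofructokinase, and yields ATP at phosphoglycerate kinase and pyruvate kinase. Pyruvate is then either reduced to lactate and exported, or oxidised through the mitochondrial pyruvate dehydrogenase complex. Many cancer cells send much of their pyruvate to lactate even with oxygen present. Hypoxia-inducible factors and MYC are known transcriptional activators of many of these genes.

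The targeted gene was low where the labels place its hairpin. Deposited SOX4 intensity was 290.5, 357 and 336 on the scrambled arrays and 136, 155 and 146 on the SOX4 shRNA arrays, a log2 difference of -2.43 ± 0.14 after normalisation (SE, n = 3 per group). The low level lay near background, with SOX4 detected on 2 of the 3 SOX4 shRNA arrays, and the size of the difference depended on the background correction, from -1.23 without one to -3.22 in the authors' values. Between 15197 and 16187 of 47322 probes were detected per array. Vimentin (VIM) and CD44 were detected on every array, and E-cadherin (CDH1), ESR1 and PGR on none. ERBB2 and EPCAM were also detected on all 6 arrays. VIM fell by 0.23 ± 0.05, EGFR fell by 1.07 ± 0.09 and EPCAM rose by 0.49 ± 0.09 in log2 signal, and whether this bears on the genes below was not tested. EGFR had -0.709 without background correction and -0.619 in the authors' values, where its call was lost with the replicate block. Of 15 markers of blood, endothelial, stromal and fat cells, 3 reached the fit (LYZ, PECAM1 and LUM), and 0 were called in either direction by limma. At an unadjusted p under 0.05 there was 1, LUM, but it was detected on 0 scrambled and 3 SOX4 shRNA arrays and so entered the fit only through the latter. Their group means ran from 128 to 147, where the array medians were 119 to 124. In bulk RNA, fewer cells of a type and less RNA per cell cannot be told apart.

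With the SOX4 hairpin, transcripts of much of the pathway were lower. Of the 36 genes 34 could be measured; 18 fell and 1 rose at an adjusted p under 0.05 in limma, fitted across all 12451 rows. That is 55.9% called, against 30.6% of all rows. Falls made up 52.9% of the genes, against 15.4% of all rows, and rises 2.94%, against 15.2%. The median log2 difference, SOX4 shRNA minus scrambled, was -0.19 for the 34 genes and -0.01 for all rows, and 27 of the 34 lay below 0. Most falls were modest: PFKFB4 alone among the 34 had a fitted fold of 2 or more, which 2.25% of all rows reached with a call.

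The groups did not overlap in normalised signal for 20 of the 34 genes, against 42.0% of all rows. Of these 20, 19 were lower, where 21.7% of all rows were lower without overlap, and 1 was higher, where 20.2% were. Among the 18 lowered genes 17 did not overlap, PGK1 being the exception, and in deposited intensity 13 did not.

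**Figure D1:**
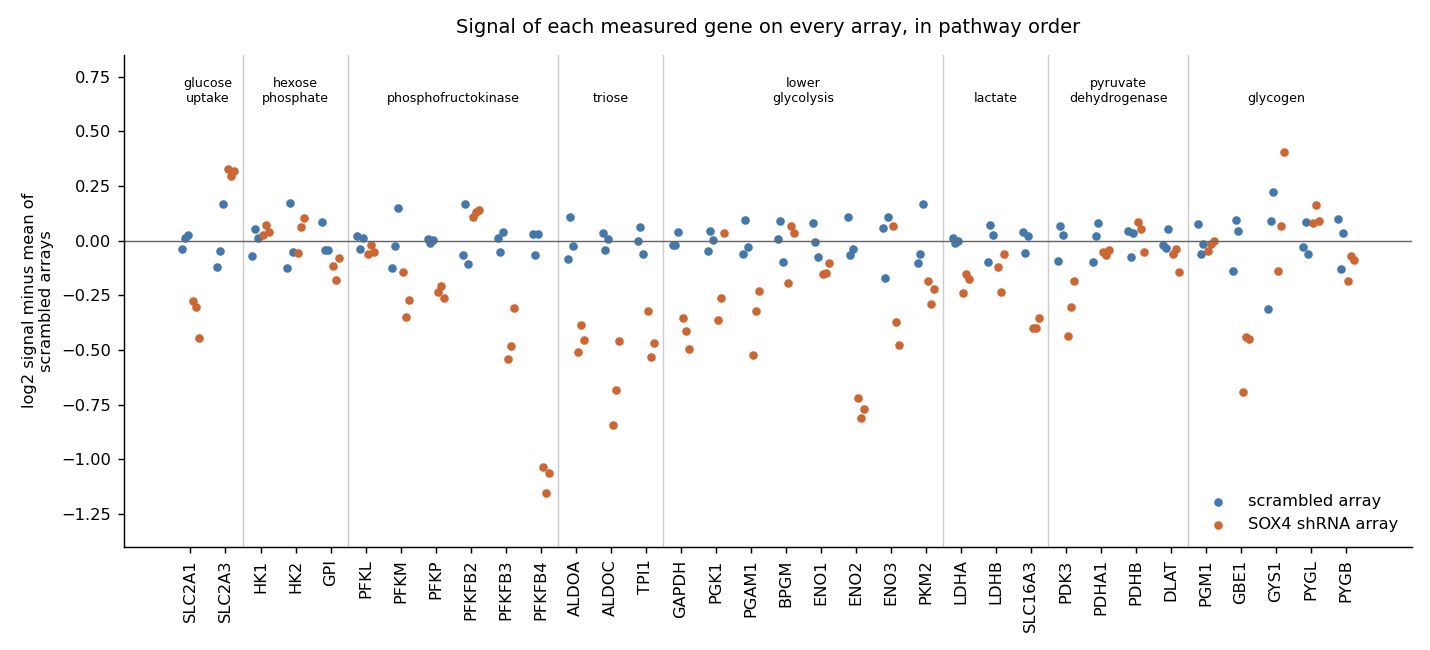
Normalised log2 signal of each measured gene on each of the 6 arrays, minus the mean of the 3 scrambled arrays, in pathway order from glucose uptake to glycogen. The SOX4 shRNA points (orange) lie below the scrambled points (blue) without overlap for 17 of the 18 lowered genes, most widely for PFKFB4, and above them for SLC2A3.

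Of the 34 genes, 20 were read by probes among the brightest 3113 rows, a ranking that reflects probe affinity as well as transcript level. There 19.4% of rows fell and 19.5% rose, while 12 of the 20 genes (60.0%) fell and 1 rose. Among the other 14 genes 6 fell (42.9%, against 15.4% of all rows, bright ones included).

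Promoters are shown for the genes with the largest fitted falls (PFKFB4, ENO2 and ALDOC) and for PGK1 and LDHA, both long-studied targets of hypoxia-inducible factors, because HIF1A and EPAS1, which encode alpha subunits of these factors, are among the regulators described further on. Each sequence runs 5′ to 3′ on the gene's strand, from 250 bases before to 50 after the RefSeq start (GRCh38.p14). Capitals mark the core letters that these factors are known to bind, ACGTG or GCGTG on either strand. The windows are chr3:48556754-48557053 for PFKFB4 (minus strand), chr12:6914330-6914629 for ENO2 (plus), chr17:28576846-28577145 for ALDOC (minus), chrX:78103998-78104297 for PGK1 (plus) and chr11:18394313-18394612 for LDHA (plus).
PFKFB4: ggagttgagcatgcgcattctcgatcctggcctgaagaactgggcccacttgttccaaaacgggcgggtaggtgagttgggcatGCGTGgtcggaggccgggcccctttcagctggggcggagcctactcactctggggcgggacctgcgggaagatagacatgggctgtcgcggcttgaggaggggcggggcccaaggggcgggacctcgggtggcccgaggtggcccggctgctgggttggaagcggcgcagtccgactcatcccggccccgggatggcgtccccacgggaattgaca
ENO2: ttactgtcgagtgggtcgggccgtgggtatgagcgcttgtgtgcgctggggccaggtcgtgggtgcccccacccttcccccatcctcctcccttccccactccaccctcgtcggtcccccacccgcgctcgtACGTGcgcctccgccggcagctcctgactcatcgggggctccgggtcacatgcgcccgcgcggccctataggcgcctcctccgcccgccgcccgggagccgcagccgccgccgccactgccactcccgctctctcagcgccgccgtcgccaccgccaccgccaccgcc
ALDOC: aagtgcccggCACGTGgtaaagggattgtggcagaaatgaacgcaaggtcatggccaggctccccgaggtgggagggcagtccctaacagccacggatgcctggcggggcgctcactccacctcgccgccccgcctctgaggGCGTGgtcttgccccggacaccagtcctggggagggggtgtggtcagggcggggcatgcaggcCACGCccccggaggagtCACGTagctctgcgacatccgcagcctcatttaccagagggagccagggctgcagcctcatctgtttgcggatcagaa
PGK1: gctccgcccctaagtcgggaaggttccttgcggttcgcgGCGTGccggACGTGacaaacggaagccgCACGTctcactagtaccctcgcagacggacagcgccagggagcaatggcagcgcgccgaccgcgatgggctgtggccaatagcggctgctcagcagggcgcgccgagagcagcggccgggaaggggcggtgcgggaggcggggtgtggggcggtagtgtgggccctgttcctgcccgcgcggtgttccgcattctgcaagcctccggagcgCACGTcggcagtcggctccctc
LDHA: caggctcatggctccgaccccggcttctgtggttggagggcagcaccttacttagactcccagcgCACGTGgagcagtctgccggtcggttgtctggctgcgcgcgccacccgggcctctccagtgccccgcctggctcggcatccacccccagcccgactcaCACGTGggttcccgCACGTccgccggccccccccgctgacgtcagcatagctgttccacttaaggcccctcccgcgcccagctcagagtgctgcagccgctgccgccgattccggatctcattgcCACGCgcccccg

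ALDOC, PGK1 and LDHA each held 4 separate stretches of such letters, and PFKFB4 and ENO2 held 1 each. Of the 33 genes with a promoter in the RefSeq table, 24 (72.7%) held ACGTG or GCGTG, against 48.4% of 35116 promoters of that length. Their promoters were also richer in G and C, with a median of 70% against 58.7%. Among the lowered genes 13 of 18 (72.2%) held the letters, and among measured genes without a call 11 of 14 (78.6%). CACGTG, which contains ACGTG on both strands and is the core bound by MYC, was present in 4 of 33 (12.1%), against 7.26% of all. ACAAAG, searched on both strands as a SOX-type core, was present in 3 of 33 (9.09%), against 16.1%. Each gene of the set was read at 1 start, and any other starts were not searched. A match of letters is a description, not a site.

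Transcripts of the glucose transporters SLC2A1 and SLC2A3 changed in opposite directions. SLC2A1 (GLUT1), the widely expressed basal transporter, had deposited intensities of 5298, 5877 and 5779 with the scrambled hairpin and 4836, 4697 and 4340 with the SOX4 hairpin. Every SOX4 shRNA array lay below every scrambled array, and SLC2A1 fell by 0.34 ± 0.05 in log2 signal (SE, n = 3 per group; adjusted p = 1.7e-05, limma). SLC2A3 (GLUT3), the high-affinity transporter best known from neurons, had 705, 809 and 884 against 1015, 1011 and 1044. It was the only one of the 34 genes that rose, by 0.31 ± 0.07 (adjusted p = 0.0014, limma), again without overlap. The probe of SLC2A14, a close copy of SLC2A3, was not above background on any array.

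The hexose phosphate steps held no call. HK1, the ubiquitous hexokinase, had intensities of 3485, 4118 and 3818 against 4002, 4143 and 4112 and a log2 difference of 0.05 ± 0.05. HK2, the inducible hexokinase, had 341, 431 and 364 against 381, 412 and 431 and a difference of 0.04 ± 0.09. The groups overlapped for both. GPI, which turns glucose 6-phosphate into fructose 6-phosphate, had a log2 difference of -0.12 ± 0.06 that did not pass (adjusted p = 0.14, limma), although its normalised values did not overlap.

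A hexokinase paralogue outside the set did change. HKDC1 was detected on 0 of 3 scrambled arrays (not well above background) and on all 3 SOX4 shRNA arrays, with intensities of 116, 135 and 112 against 179.6, 189.8 and 189.6. After background correction its level in SOX4 shRNA cells was at least 2.24-fold higher. The bound belongs to that scale and takes, for each scrambled array, whichever was higher of the dimmest detected signal and the HKDC1 signal. Its mean normalised log2 signals were 4.72 ± 0.39 and 6.39 ± 0.06 (SD, n = 3), and the authors' deposited table gives a fold of 8.71. The log2 difference ran from 0.58 without background correction to 3.06 in the authors' values. HKDC1 passed the detection filter only through the SOX4 shRNA arrays; with no filter on detection it was called too (adjusted p = 4.8e-07, limma).

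**Figure D2:**
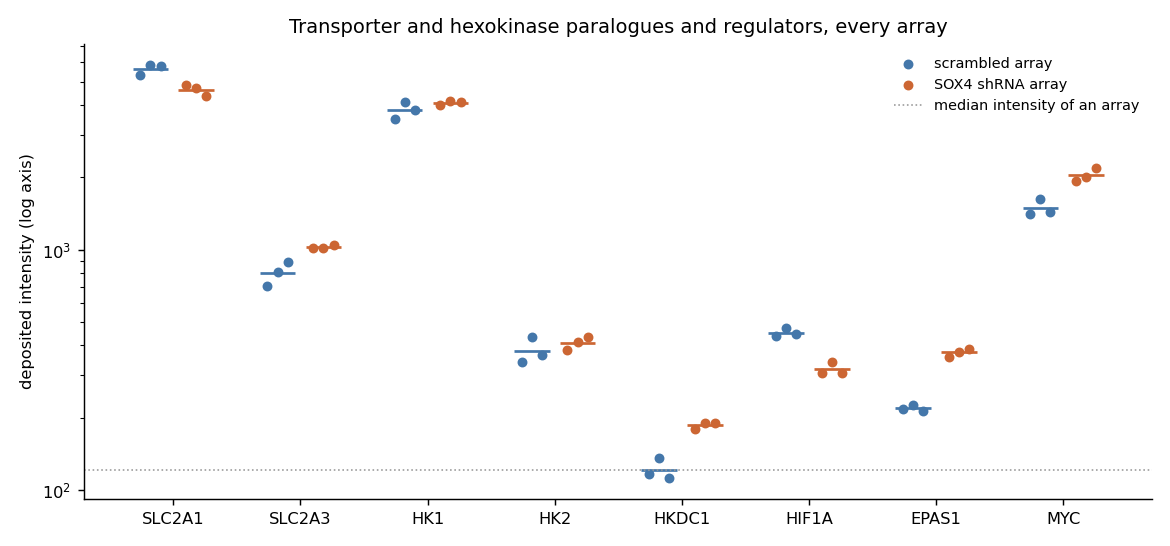
Deposited intensity, on a log axis, of SLC2A1, SLC2A3, 3 hexokinase genes, HIF1A, EPAS1 and MYC on each array, with bars at group means and a dotted line at the median array intensity. The groups separate for each gene shown except HK1 and HK2, and HKDC1 lies near the dotted line with the scrambled hairpin; heights compare only within a gene.

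At the committed step, 4 of 6 genes fell (66.7%, against 15.4% of all rows). PFKFB enzymes make and break down fructose 2,6-bisphosphate, a strong activator of phosphofructokinase. PFKFB4 had intensities of 557, 576 and 582 against 344, 330 and 349, with little spread in either group and a wide gap. It fell by 1.08 ± 0.08 on the log2 scale, or 2.12-fold (SE, n = 3 per group; adjusted p = 6.7e-11, limma). PFKFB3, the isoform with high kinase activity, had 1079, 1125 and 1136 against 828, 875 and 985, without overlap, and fell by 0.44 ± 0.07 (adjusted p = 1.4e-05, limma). PFKFB2, the heart-type isoform, lay near background, at 132 to 144 against 141 to 146, and its difference of 0.13 ± 0.19 did not pass.

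Of the enzyme's own subunits, the platelet-type PFKP had intensities of 2718, 2880 and 2836 against 2501, 2576 and 2504, without overlap, and fell by 0.23 ± 0.05 (adjusted p = 0.0011, limma). The muscle-type PFKM had -0.25 ± 0.08 (adjusted p = 0.02, limma), and its deposited intensities overlapped, at 507 to 615 against 499 to 548. For PFKM the call was lost without scrambled array 2b (-0.178), SOX4 shRNA replicate 2 (-0.207) or SOX4 shRNA replicate 3 (-0.247). The liver-type PFKL had -0.04 ± 0.08 and overlapping groups.

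All 3 triose genes fell, where 15.4% of all rows did. ALDOA, the main aldolase of most tissues, had intensities of 3624, 4453 and 3879 against 2931, 3208 and 3115, and fell by 0.45 ± 0.06. ALDOC, the brain-type aldolase, had 215, 222 and 218 against 169, 179.9 and 198, and fell by 0.66 ± 0.13; this dim probe had -0.331 without background correction and -0.843 in the authors' values. TPI1, which interconverts the triose phosphates, had 6045, 6793 and 6109 against 5207, 4524 and 4828, and fell by 0.44 ± 0.06 (SE, n = 3 per group). The groups overlapped for none of these 3, and their adjusted p-values in limma were 8.1e-07, 2.5e-04 and 8.7e-07.

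**Figure D3:**
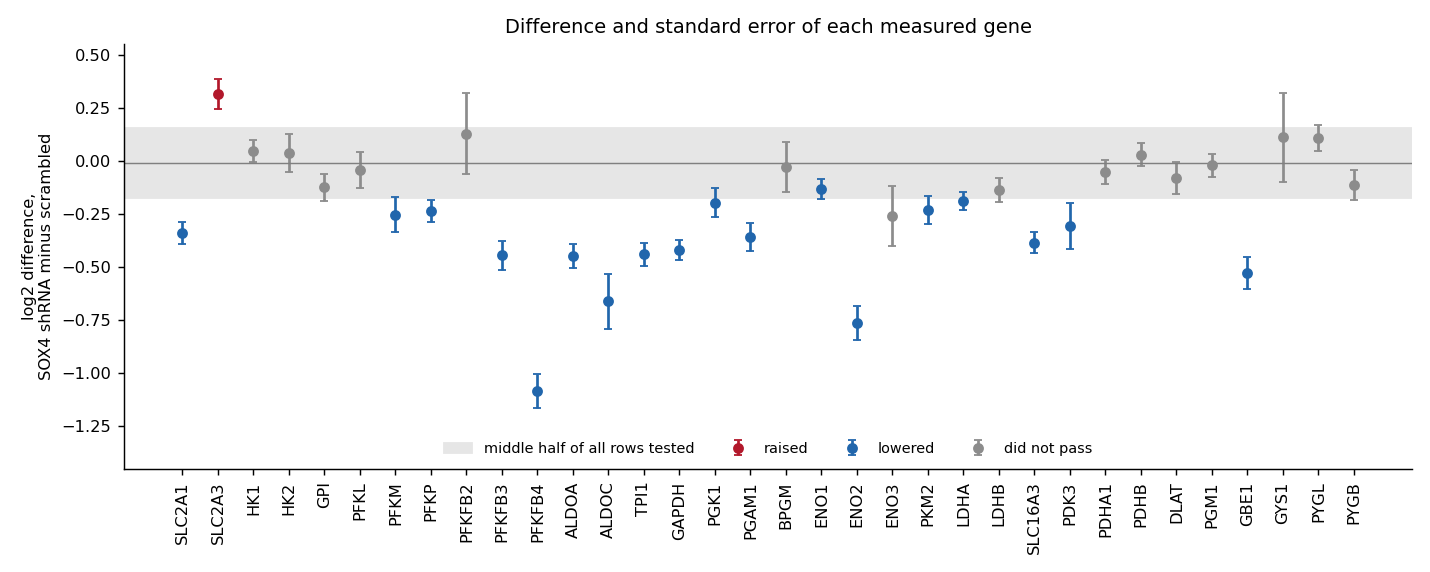
Log2 difference, SOX4 shRNA minus scrambled, of the 34 measured genes in pathway order, with standard errors from limma; blue points fell, the red point rose, and grey points did not pass. The grey band is the interquartile range of all 12451 rows, from -0.17 to 0.16, and 17 of the 18 lowered genes lie below it, ENO1 lying inside.

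Of the 8 genes of lower glycolysis 6 fell. GAPDH, which oxidises glyceraldehyde 3-phosphate and is a common reference gene in expression assays, had intensities of 14377, 15341 and 15312 against 12249, 11558 and 11097. The groups lay far apart, and GAPDH fell by 0.42 ± 0.05 (SE, n = 3 per group; adjusted p = 1.4e-07, limma). ENO2, the neuron-type enolase, had 542, 537 and 518 against 377, 365 and 381, without overlap, and fell by 0.77 ± 0.08 (adjusted p = 4.1e-08, limma). ENO1, the ubiquitous enolase, had 19973, 19696 and 18309 against 18011, 17859 and 18683, which overlapped, and the smallest called difference of the set, -0.13 ± 0.05 (adjusted p = 0.031, limma). For ENO1 the call was lost without scrambled replicate 1 (-0.0886), scrambled array 2a (-0.139), SOX4 shRNA replicate 1 (-0.124) or SOX4 shRNA replicate 2 (-0.13), and with the authors' values (-0.134). The muscle-type ENO3 had -0.26 ± 0.14 and did not pass, but did without SOX4 shRNA replicate 1 (-0.425).

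PGAM1, the phosphoglycerate mutase of most tissues, had intensities of 2805, 3389 and 2969 against 2233, 2577 and 2769, without overlap, and fell by 0.36 ± 0.06 (adjusted p = 1.2e-04, limma). BPGM, which makes 2,3-bisphosphoglycerate, had -0.03 ± 0.12 and did not pass. PGK1, the first ATP-yielding enzyme, had 4945, 5693 and 5344 against 4275, 4577 and 5693, so that SOX4 shRNA replicate 3 reached the highest scrambled array. Its log2 difference was -0.20 ± 0.07 (adjusted p = 0.031, limma). For PGK1 the call was lost without scrambled array 2a (-0.175), scrambled array 2b (-0.196), SOX4 shRNA replicate 1 (-0.112) or SOX4 shRNA replicate 2 (-0.166). Pyruvate kinase, PKM2 on the array, makes the final ATP of glycolysis and had -0.23 ± 0.06 (adjusted p = 0.0073, limma), with intensities of 2070 to 2549 against 1998 to 2135 that overlapped. For PKM2 the call was lost without scrambled array 2b (-0.147), with the mean of its probes (-0.162) and with the authors' values (-0.134).

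Of the 3 measured lactate genes 2 fell (66.7%, against 15.4% of all rows). LDHA, the subunit that favours lactate formation, had intensities of 16528, 17578 and 17164 against 14859, 15669 and 15940, without overlap, and fell by 0.19 ± 0.04 (adjusted p = 0.0018, limma). LDHB, the heart-type subunit, had -0.14 ± 0.06 and did not pass (adjusted p = 0.065, limma), but did without scrambled replicate 1 (-0.188) or SOX4 shRNA replicate 3 (-0.177). SLC16A3 (MCT4), the main lactate exporter of glycolytic cells, had 6737, 6721 and 6853 against 5333, 5328 and 5550, a clear gap with little spread, and fell by 0.39 ± 0.05 (SE, n = 3 per group; adjusted p = 9.0e-07, limma). SLC16A1 (MCT1) was not above background on any array, at 104 to 114, so no difference was computed.

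The genes with several kept probes gave 1 direction each. There were 9 of them, and no pair of probes had opposite signs. The other GAPDH probes gave -0.47 and -0.49, both called. The other PGK1 probe gave -0.44, and its groups did not overlap, unlike those of the brighter probe; the mean over both was -0.319. The other LDHA probes gave -0.29 and -0.49, the latter on a dim probe, and the mean over its probes was -0.323. The other PKM2 probes gave -0.15 and -0.11 without a call, and the mean over its probes was -0.162, also without a call. Which splice form each PKM2 probe reads is not stated in the sources used here. The second probe gave -0.49 for ALDOA, -0.46 for PGAM1, -0.44 for TPI1, -0.43 for PFKFB3 and, without a call, 0.16 for HK2.

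**Figure D4:**
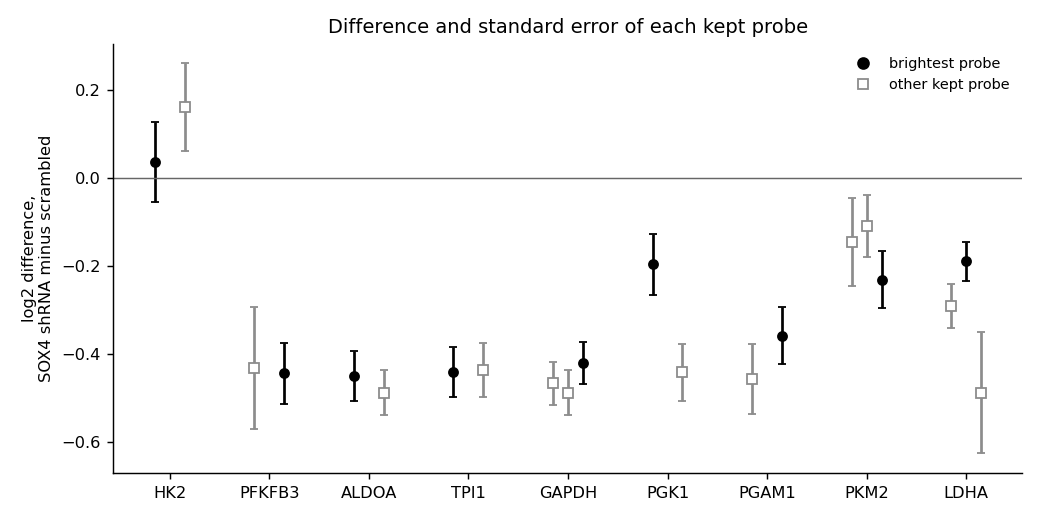
Log2 difference with standard error of each kept probe, for the 9 genes of the set with several kept probes. The probes of a gene lie on the same side of 0, and the brightest probe (filled) shows a smaller fall than the others for GAPDH, PGK1, PGAM1, LDHA and ALDOA, and a larger one for PKM2.

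At pyruvate dehydrogenase, which commits pyruvate to oxidation, 1 of 4 measured genes passed. The catalytic subunits PDHA1 and PDHB had -0.05 ± 0.06 and 0.03 ± 0.05, and DLAT, the acetyltransferase core, had -0.08 ± 0.07, none past the test. PDK kinases switch the complex off. PDK1 was not above background on any array, at 114 to 128. PDK3 had -0.31 ± 0.11 (adjusted p = 0.031, limma), and its deposited intensities of 238 to 274 against 221 to 254 overlapped. Without background correction PDK3 had -0.183. For PDK3 the call was lost without scrambled array 2a (-0.273), scrambled array 2b (-0.295), SOX4 shRNA replicate 1 (-0.243) or SOX4 shRNA replicate 2 (-0.31). The PDK3 call was also lost with the authors' values (-0.358) and without a detection filter (-0.307).

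In glycogen metabolism 1 of 5 genes fell. GBE1, the branching enzyme, had intensities of 834, 1041 and 965 against 646, 766 and 775, without overlap, and fell by 0.53 ± 0.08 (SE, n = 3 per group; adjusted p = 7.3e-06, limma). PGM1, which links glycogen to glucose 6-phosphate, had -0.02 ± 0.05. The synthase GYS1 lay near background, at 126 to 155, and had 0.11 ± 0.21. The phosphorylases PYGL and PYGB had 0.11 ± 0.06 and -0.11 ± 0.07, and none of these 4 passed.

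Known regulators of the pathway moved both ways: of 13 measured of 17, 4 rose and 2 fell (46.2% called, against 30.6% of all rows). HIF1A, the alpha subunit of hypoxia-inducible factor 1, had intensities of 435, 471 and 446 against 306, 342 and 307. It fell by 0.80 ± 0.09 (SE, n = 3 per group; adjusted p = 8.2e-08, limma), and its other probes gave -1.14 and -1.08. EPAS1, which encodes HIF-2 alpha, had 217, 225 and 214 against 359, 375 and 388, and rose by 1.07 ± 0.10 (adjusted p = 2.1e-09, limma). Neither gene's groups overlapped, and EPAS1 had 0.692 without background correction. MYC had 1406, 1629 and 1433 against 1937, 2000 and 2190, and rose by 0.40 ± 0.06; its partner MAX rose by 0.43 ± 0.12, though 1 of its other probes gave 0.05 and the authors' values gave 0.177, both without a call. EGLN2, a HIF prolyl hydroxylase named after its value was seen, rose by 0.30 ± 0.05. HIF1AN, an oxygen-dependent inhibitor of HIF, fell by 0.49 ± 0.11, and TXNIP, a brake on glucose uptake, had -0.02 ± 0.05 and did not pass. The part of these regulators in the differences of the pathway genes was not tested.

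Among 29 further genes of glycolysis and transport, 9 were measured. Of these 3 rose and 3 fell (66.7% called, against 30.6% of all rows). There were 2 rises when detection on all 6 arrays was required, which leaves HKDC1 out. Besides HKDC1, the transporters SLC2A6 and SLC2A8 rose by 0.36 ± 0.08 and 0.21 ± 0.07. For SLC2A8 the call was lost without scrambled array 2a (0.192), scrambled array 2b (0.176), SOX4 shRNA replicate 1 (0.204) or SOX4 shRNA replicate 2 (0.183). C12orf5 (TIGAR), which breaks down fructose 2,6-bisphosphate, fell by 0.32 ± 0.09. BSG (basigin), the chaperone of MCT1 and MCT4, fell by 0.23 ± 0.06, but had 0.238 without a call in the authors' values; its second probe was not above background. PGAM4 is a near-identical copy of PGAM1, and its probes may also read PGAM1 transcripts. PGAM4 had -0.14 ± 0.06, and the call was lost without scrambled array 2a (-0.145) or scrambled array 2b (-0.113). It was also lost without SOX4 shRNA replicate 1 (-0.162), SOX4 shRNA replicate 2 (-0.152) or SOX4 shRNA replicate 3 (-0.117).

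Among 18 further genes of pyruvate use and gluconeogenesis, 14 were measured. Of these 5 rose and 1 fell (42.9% called, against 30.6% of all rows). PDHX, the binding protein of the pyruvate dehydrogenase complex, had intensities of 561, 644 and 598 against 863, 839.7 and 846, without overlap, and rose by 0.47 ± 0.07. FBP1, the gluconeogenic fructose bisphosphatase, rose by 0.34 ± 0.07 and the malic enzyme ME2 by 0.33 ± 0.09. PCK2 and ME1, named after their values were seen, rose by 0.33 ± 0.09 and 0.33 ± 0.11. The glucose 6-phosphatase G6PC3 had -0.31 ± 0.11. Its call was lost without scrambled replicate 1 (-0.336), scrambled array 2a (-0.194), SOX4 shRNA replicate 2 (-0.252) or SOX4 shRNA replicate 3 (-0.309). The G6PC3 call was also lost with the authors' values (-0.351). Of 24 further genes, of glycogen metabolism or of the PGM family, 15 were measured, and 2 fell (13.3%, against 15.4% of all rows). Both were PGM family genes, and whether they act on glycogen was not tested. PGM2 fell by 0.62 ± 0.09. PGM3 fell by 0.29 ± 0.08, though the call was lost without SOX4 shRNA replicate 1 (-0.229).

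In the pentose phosphate pathway, which draws on glucose 6-phosphate for NADPH and ribose, 10 of 12 genes were measured. Of these 3 fell and 1 rose (40.0% called, against 30.6% of all rows). The dehydrogenase PGD had intensities of 1057, 1155 and 1159 against 758, 844 and 886, without overlap, and fell by 0.59 ± 0.07. TALDO1 fell by 0.23 ± 0.05, with -0.0631 and no call in the authors' values. RPIA, the ribose phosphate isomerase, rose by 0.49 ± 0.07.

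All 20 genes of the citric acid cycle were measured, and 5 fell and 2 rose. Of all rows 30.6% were called, with 15.4% falling and 15.2% rising. FH, the fumarase, fell by 0.35 ± 0.07, SUCLG1 fell by 0.22 ± 0.06 and IDH3B fell by 0.21 ± 0.06. SUCLG2 and MDH2, named after their values were seen, fell by 0.20 ± 0.07 and by 0.13 ± 0.05. SDHD rose by 0.29 ± 0.06 and ACO1, the cytosolic aconitase, by 0.15 ± 0.05. For IDH3B the call was lost without scrambled replicate 1 (-0.174) or SOX4 shRNA replicate 3 (-0.175). For ACO1 it was lost without scrambled array 2a (0.129), scrambled array 2b (0.141), SOX4 shRNA replicate 1 (0.131) or SOX4 shRNA replicate 2 (0.141). Leaving out SOX4 shRNA replicate 3 left 2 falls in this list, and errors in this and the preceding paragraphs are SE with n = 3 per group.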

How the data were processed

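Total RNA of 6 samples was read on Illumina HumanHT-12 v4 arrays, and GenomeStudio 2011.1 stands in the submitters' processing notes. The authors deposited linear probe intensity without normalisation, beside a deposited detection p-value for each probe and array. A gene-level table of log2 values and a table of linear fold changes were also deposited by the authors; per the file headers of the latter, values were RMA normalised in ArrayStar, and genes under log2 2.5 in both means were removed. Its SOX4 column carries another hairpin's name, although a header line lists the SOX4 hairpin samples. On a log2 scale its folds correlated at 0.995 with differences of the gene-level values across 11890 genes. The intensity columns include a pair both headed scrambled replicate 2 and none headed replicate 3. Both were used, as scrambled arrays 2a and 2b.

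Here neqc (limma 3.58.1, R 4.3.3) corrected background, added an offset of 16 and quantile normalised to log2. Kept were 15717 probes (33.2%) with a detection p below 0.01 on 3 or more arrays. The brightest kept probe stood for its gene, which gave 12451 rows. Group differences came from lmFit and eBayes (trend on), Benjamini-Hochberg adjusted across all rows at 0.05. Quantile normalisation would hide a shift shared by all genes. Precision is limited by how many arrays there are.

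The genes, lists and tests were chosen with earlier results of these data known. Named are all genes of the set, SOX4, up to 3 raised and 3 lowered genes of each neighbouring list, and HIF1A, EPAS1, MYC, TXNIP, SLC2A14 and BSG. A result that the rule would name is not reported here. The counts among bright rows and the promoters printed were chosen after values were seen. Promoters (RefSeq, GRCh38.p14) were matched by gene ID. The model was tested on simulated data with 200 changed genes. Alternatives covered background correction, scaling, detection filter, probe rule, variance trend, the authors' values, a replicate block and leaving out each array. Same-numbered arrays did not deviate together (correlations of 0.016, -0.001 and -0.023 over 12067 genes), so the numbers were not taken as pairs. Plots used matplotlib 3.10.9 in Python 3.11.15.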

Additional observations from a re-analysis of the deposited data

How the results depend on the processing

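Over 15 other settings 1 gene of the set rose in each, and 13 of the 19 called genes kept their call in every one; PFKM, PGK1, ENO1, PKM2, LDHA and PDK3 lost it in at least 1, LDHA only without an intensity trend (-0.189). The count of lowered genes was 13 to 19 over the 9 settings that kept all arrays and 14 to 18 when 1 array was left out. The median of the set was -0.16 without background correction, -0.243 with median scaling and -0.164 without a detection filter, and -0.205 to -0.156 when 1 array was left out. LDHB passed with cyclic loess (-0.159) and median scaling (-0.185). HK1 turned to -0.19 with the authors' values and BSG to 0.238, in both cases with and without the replicate block, and PDHB to -0.00732 with median scaling. When 1 array was left out, the uncalled differences ran from -0.025 to 0.123 for HK2, -0.0792 to 0.0498 for BPGM, -0.0083 to 0.0696 for PDHB, -0.0498 to 0.0171 for PGM1, -0.0467 to 0.236 for GYS1 and -0.0442 to 0.00881 for TXNIP. Without background correction, HIF1AN had -0.295, MAX 0.219 and G6PC3 -0.191, each still called, and PGAM4 had -0.28 as the mean of its probes. The replicate block, fitted on the authors' values, gave 14 lowered genes of the set, where those values gave 15 without it. The labels do not say what a replicate number marks.

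In the neighbouring lists, the further pyruvate genes had 3 rises with the replicate block, and 0 falls with the authors' values, with the replicate block and without an intensity trend. Glycogen genes had 1 rise without background correction, with cyclic loess, median scaling, the authors' values, the mean of probes or the replicate block. Pentose phosphate genes had 1 fall with the authors' values, with or without the replicate block. Citric acid cycle genes had 1 rise with median scaling, without a detection filter or without an intensity trend; they had 3 falls with the authors' values, the replicate block or no detection filter, and 1 without an intensity trend. Line markers had 1 fall with the replicate block, and markers of other cells 1 rise without an intensity trend. When 1 array was left out, falls among pyruvate genes ran from 0 to 1, rises among glycogen genes from 0 to 1, and citric acid cycle genes had 1 to 3 rises and 2 to 5 falls. The cause of these shifts was not tested. Slide as a block was not run, since no slide is named in the columns used. Dim genes near background, such as GYS1 and PFKFB2, have the widest errors.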

Other observations

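The authors' gene-level log2 values of HK1 were 2.54 to 2.96, although 1 HK1 probe had deposited intensities of 3485 to 4143. The other 3 HK1 probes lay between 98.3 and 148, close to the array medians. How the authors combined the probes of a gene is not stated in the sources used here.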
